A study of Mus musculus with 6 samples.

Results

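Astrocytes were followed in the prefrontal cortex through 10 marker genes: Gfap, Aqp4, Slc1a2, Slc1a3, Aldh1l1, Gja1, Gjb6, Glul, S100b and Aldoc. They were chosen by name as a listed set, not by a rule on their values, though earlier results of these data were known. They make up 10 of the 18160 genes in the deposited table. All 10 were in the table and all 10 passed the filter on low values, which asked for 10 normalized counts on average and kept 15151 genes. RNA was sequenced from the prefrontal cortex of adult C57BL/6J mice at postnatal day 56, from 3 wild types and 3 heterozygotes for Cyfip2, a subunit gene of the actin-regulating WAVE complex. The labels give the genotype without the allele, and nothing in them ties a sample to its own animal, so the p-values rest on a spread that may be technical. Cyfip2 itself fell to 64.4% of wild type in the heterozygotes (95% confidence interval 59.7% to 69.5%, adjusted p = 0.0027 by limma). The call was lost when limma was fitted without a variance trend (adjusted p = 0.15, same fold change).

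Astrocytes take up glutamate and potassium released by neurons, supply neurons with glutamine and lactate, and line blood vessels with their endfeet. Most of the markers encode this housekeeping machinery and are called homeostatic here. Gfap encodes an intermediate filament protein that is sparse in resting cortical astrocytes and accumulates when astrocytes become reactive after injury or in disease. The markers are not fully specific: S100b and Glul are also transcribed in oligodendrocytes. In RNA from whole tissue, fewer cells of a type and less RNA per cell cannot be told apart.

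No astrocyte marker passed an adjusted p of 0.05 between the genotypes. Of the 10 markers, 8 lay above and 2 below wild type in the heterozygotes, the median log2 fold change was 0.05 against 0.002 over all genes tested, and in every marker the samples of the 2 genotypes overlapped. The largest differences were those of Gfap and of Gjb6, a gap junction gene, at 124% and 121% of wild type, and both had a wide spread within a genotype. By limma 0 of the 10 markers passed, and 0 had an unadjusted p under 0.05. Over all genes 0.0132% passed the adjusted threshold, 5.07% had an unadjusted p under 0.05, 10.5% did not overlap between genotypes and 50.8% lay above wild type. When wild-type sample 1 was left out, which held the lowest value of 6 markers, 5 of 10 markers lay above wild type and the median was -0.006. With any other sample left out the count stayed at 8, and the median ran from 0.03 to 0.11.

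The promoters of the markers with the largest differences, Gfap and Gjb6, are shown with that of Gja1, the connexin partner of Gjb6 in astrocytes. Each is the 250 bases before the transcription start in RefSeq on GRCm38.p6, read along the gene's strand. Gfap is at chr11:102897201-102897450 on the minus strand, Gjb6 at chr14:57133612-57133861 on the minus strand and Gja1 at chr10:56377050-56377299 on the plus strand. None of the 3 windows overlaps an annotated exon in GENCODE M21. The Gfap window still lies inside the GENCODE span of the gene, 102887336 to 102900912, whose outer start is upstream of the RefSeq start used. Capitals mark a match to the AP-1 motif TGANTCA or the STAT motif TTCNNNGAA.
Gfap: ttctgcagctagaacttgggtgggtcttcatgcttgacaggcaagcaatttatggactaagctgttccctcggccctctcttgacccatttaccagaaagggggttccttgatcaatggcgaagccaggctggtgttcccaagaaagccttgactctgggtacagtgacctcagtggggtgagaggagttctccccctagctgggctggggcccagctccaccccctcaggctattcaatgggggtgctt
Gjb6: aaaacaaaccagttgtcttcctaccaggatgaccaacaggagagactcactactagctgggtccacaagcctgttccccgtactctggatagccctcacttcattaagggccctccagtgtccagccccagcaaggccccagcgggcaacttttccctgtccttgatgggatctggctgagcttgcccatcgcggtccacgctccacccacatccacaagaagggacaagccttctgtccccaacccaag
Gja1: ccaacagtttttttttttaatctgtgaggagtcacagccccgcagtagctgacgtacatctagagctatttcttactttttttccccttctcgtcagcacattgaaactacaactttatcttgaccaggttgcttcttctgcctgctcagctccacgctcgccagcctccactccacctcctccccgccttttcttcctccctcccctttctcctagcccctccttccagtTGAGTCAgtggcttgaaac
Only the Gja1 window of these 3 holds a match, TGAGTCA, which begins 19 bases before the start. Both motifs were searched on both strands. AP-1 was found in 6.75% of the 32851 windows of this length in the RefSeq table and STAT in 7.02%. Windows were available for 9 of the 10 markers, and of these Aldoc and Slc1a3 held a STAT match and Gja1 an AP-1 match. A match is a run of letters, and no binding was measured in these samples.

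Gfap was measured first, as the reactive marker. Gfap (ENSMUSG00000020932) lies on chromosome 11 at 102887336 to 102900912 (GRCm38, minus strand). Its normalized counts were 2793, 4447 and 3248 in wild-type samples 1, 2 and 3 and 4668, 4599 and 3561 in heterozygous samples 1, 2 and 3. Wild-type sample 2 lay among the heterozygous values, and heterozygous sample 3 lay nearer to wild-type sample 3 than to the other heterozygotes. The wild-type mean was 3496 ± 854 and the heterozygous mean 4276 ± 620 (SD, n = 3 each). Gfap had a log2 fold change of 0.31 ± 0.16 (SE), an interval of -0.04 to 0.66 and an adjusted p of 0.95 by limma-trend (unadjusted p = 0.080). The exact two-sided permutation p was 0.2, where 3 against 3 samples cannot go below 0.1. The fold change was 0.16 without wild-type sample 1 and 0.49 without wild-type sample 2, so these samples move it in opposite directions. The spread of Gfap between wild-type samples, a coefficient of variation of 24.4%, was wider than the counting error of 2.05% at the 2386 reads implied in wild-type sample 3, the fewest Gfap reads of any sample.

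**Figure D1:**
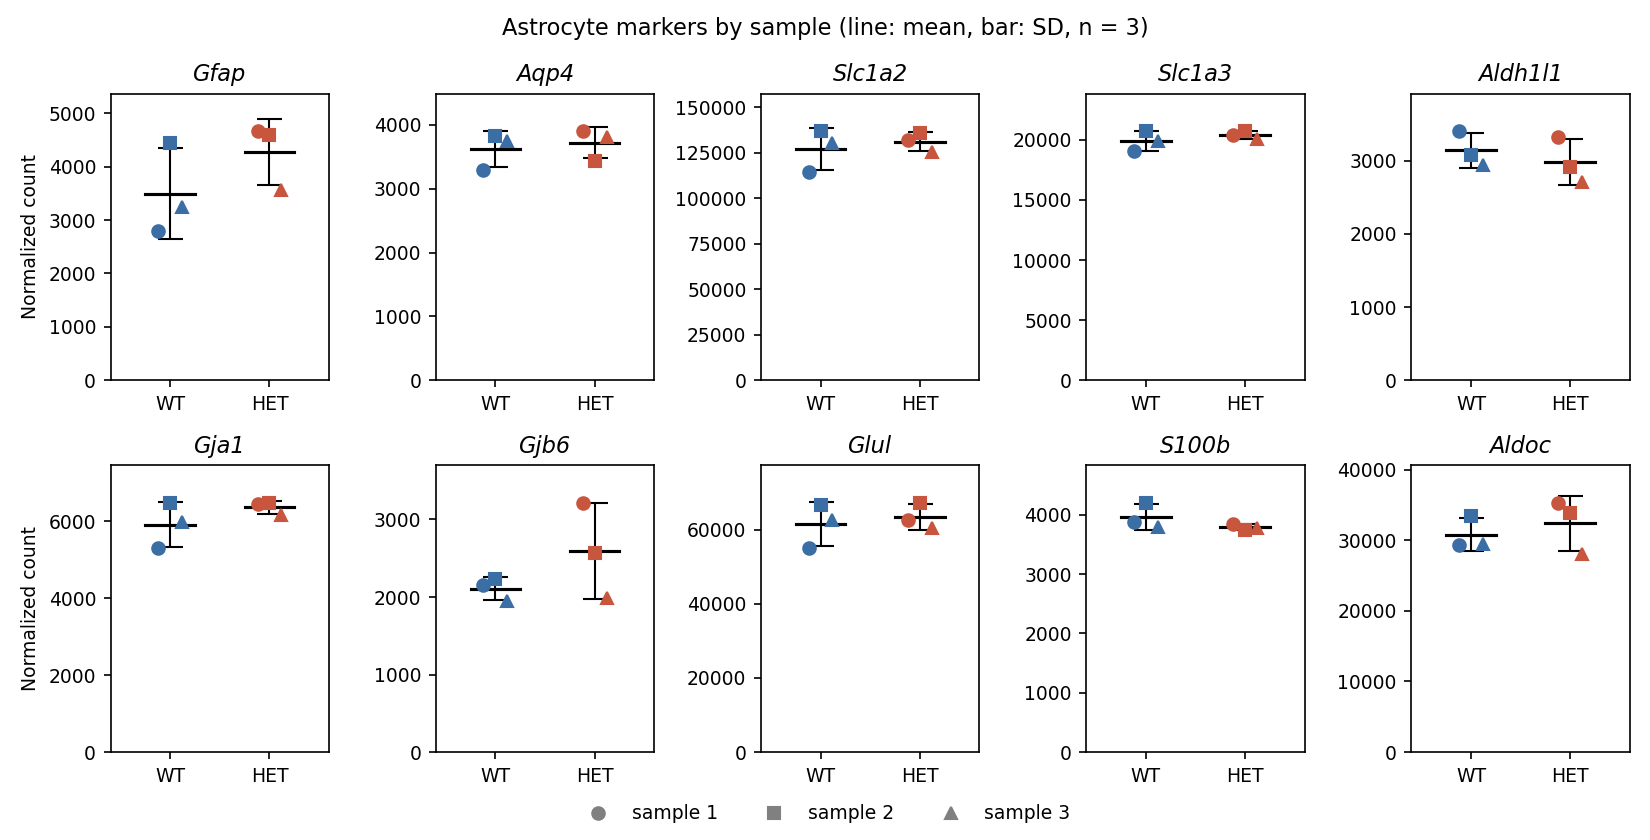
Normalized count (vertical axes, from 0) of each astrocyte marker in 3 wild-type (WT) and 3 heterozygous (HET) samples; each point is a sample, the line is the mean and the bar the SD. The genotypes overlap in every panel, and the spread is widest for Gfap in WT (2793 to 4447) and for Gjb6 in HET (1983 to 3217).

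The astrocyte gap junction genes differed from each other in their spread. Gja1 and Gjb6 encode the main connexins of astrocytes, which couple the cells into a network that passes ions and metabolites. Gjb6 (chromosome 14, 57123303 to 57133611) was at 2152, 2226 and 1946 normalized counts in wild-type samples 1 to 3 and at 3217, 2572 and 1983 in heterozygous samples 1 to 3. Heterozygous samples 1 and 2 lay above all wild-type samples, while heterozygous sample 3 lay inside the wild-type range. The Gjb6 means were 2108 ± 145 and 2591 ± 617 (SD, n = 3 each), with a log2 fold change of 0.27 ± 0.14 (SE), an interval of -0.05 to 0.59 and an adjusted p of 0.95 by limma-trend. Without heterozygous sample 1 that fold change was 0.10, and without heterozygous sample 3 it was 0.45.

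Gja1 (chromosome 10, 56377330 to 56402513) was at 5302, 6475 and 5976 in wild-type samples and at 6444, 6489 and 6161 in heterozygous samples. Wild-type sample 1 was the low one, and the other 5 samples lay close together. Gja1 had a log2 fold change of 0.11 ± 0.07 (SE), with an interval of -0.05 to 0.27. That value was 0.03 without wild-type sample 1. The log2 ratio of Gjb6 to Gja1 within a sample ran from -1.62 to -1.30 in wild-type samples and from -1.64 to -1.002 in heterozygous samples, so the heterozygous range enclosed the wild-type range (exact permutation p = 0.7 before and 0.9 after Benjamini-Hochberg adjustment over 14 gene pairs). Of the 11 other connexin, pannexin and junction genes tested, 5 lay above and 6 below wild type and none passed the threshold, and 8 of 11 lay above without wild-type sample 2. Gjc3, a connexin of oligodendrocytes and their precursors, and Gjc1, a vascular and neuronal connexin, had the smallest p, with log2 fold changes of -0.20 ± 0.10 and 0.22 ± 0.14 (SE).

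Transcripts for glutamate uptake and its conversion to glutamine were close to wild type. Slc1a2 encodes GLT-1 and Slc1a3 GLAST, the astrocyte glutamate transporters, and Glul encodes glutamine synthetase, which turns the glutamate taken up into glutamine. Slc1a2 was at 114359, 136938 and 130274 normalized counts in wild-type samples and at 132053, 135733 and 125297 in heterozygous samples. Slc1a3 was at 19080.0, 20735 and 19907 in wild-type samples and at 20406, 20691 and 20093 in heterozygous samples. Glul was at 55085, 66748 and 62657 in wild-type samples and at 62649.6, 67338 and 60560.3 in heterozygous samples. In these genes wild-type sample 1 was the lowest of the 6 samples, and the heterozygous samples fell between the wild-type extremes but for Glul in heterozygous sample 2.

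The log2 fold changes of Slc1a2, Slc1a3 and Glul were 0.05 ± 0.07, 0.04 ± 0.05 and 0.05 ± 0.08 (SE), with adjusted p values of 0.99 each by limma-trend. Their intervals in percent of wild type were 92.2% to 116%, 94.9% to 111% and 92.1% to 116%. Slc1a2 and Glul turned to -0.03 each when wild-type sample 1 was left out. They varied in step: the log2 ratio of Slc1a2 to Glul lay between 1.01 and 1.08 in all 6 samples, while Slc1a2 itself ran from 114359 to 136938 normalized counts. That ratio averaged 1.05 ± 0.01 in wild-type samples and 1.05 ± 0.03 in heterozygotes (SD, n = 3 for each), and Pearson's r between these genes was 0.98 over the 6 samples, which share their libraries. Slc1a3 and Gja1 also ran together, at an r of 0.98.

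Of 14 other genes of glutamate and glutamine handling, 7 lay above and 7 below wild type and none passed. Slc17a6 and Slc17a7, the vesicular glutamate transporters of neurons, had the smallest p, with log2 fold changes of -0.26 ± 0.15 and -0.08 ± 0.05 (SE). Slc17a6 was at -0.08 without heterozygous sample 2, and Slc17a7 at -0.04 without wild-type sample 1.

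Aqp4 encodes the water channel of the astrocyte endfeet, where it is anchored by the dystroglycan complex. It was at 3297, 3826 and 3743 normalized counts in wild-type samples and at 3903, 3439 and 3811 in heterozygous samples. Each genotype held 1 low sample, wild-type sample 1 and heterozygous sample 2. Aqp4 had a log2 fold change of 0.04 ± 0.07 (SE), with an interval of -0.12 to 0.20, and it was -0.03 without wild-type sample 1. Of 12 genes of the endfoot complex, 9 lay above wild type, beside 50.8% of all genes, with a median log2 fold change of 0.04. None passed, beside 0.0132% of all genes, and none was free of overlap, beside 10.5%. Kcnj10, Mlc1 and Hepacam of this list are also counted among the other astrocyte genes below. Dtnb, a dystrobrevin, was at 0.10 ± 0.07 (SE) and Dag1, the dystroglycan gene, at -0.06 ± 0.05 (SE). With wild-type sample 1 left out, 7 of the 12 lay above wild type.

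Aldh1l1 and S100b were the markers below wild type. Aldh1l1 encodes a folate enzyme that is widely used as a marker of the whole astrocyte population. It was at 3407, 3077 and 2936 normalized counts in wild-type samples and at 3326, 2916 and 2703 in heterozygous samples. Aldh1l1 was highest in wild-type sample 1, the sample in which 6 other markers were lowest. Over the 6 samples its correlation with the other markers had a median r of -0.29 and was positive with 3 of 9. The other markers had a median r of 0.23 to 0.84 with the rest. The log2 fold change of Aldh1l1 was -0.08 ± 0.08 (SE), with an interval of -0.27 to 0.11.

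Of 13 further genes of folate and one-carbon metabolism, 5 lay above and 8 below wild type and none passed, with a median of -0.06. Mthfd1l, a mitochondrial folate enzyme, was at -0.20 ± 0.09 (SE) and below wild type in every heterozygous sample. Gcsh, of the glycine cleavage system, was at 0.13 ± 0.07 (SE) and above wild type in every one. No other gene of this list was free of overlap, beside 10.5% of all genes.

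S100b encodes a calcium-binding protein released by astrocytes. It was at 3889, 4207 and 3798 in wild-type samples and at 3854, 3746 and 3778 in heterozygous samples. The heterozygous values lay within 1.03-fold of each other, and 2 of them were below the lowest wild-type sample. S100b had a log2 fold change of -0.06 ± 0.06 (SE), with an interval of -0.19 to 0.06. Oligodendrocyte markers, whose cells also transcribe S100b, were below wild type for 8 of 8 genes without any passing, and their summed normalized counts ran from 131742 to 184164 in wild-type samples and from 128422 to 139838 in heterozygotes. That direction rested on wild-type sample 2: without it 5 of 8 lay above wild type and the median turned from -0.11 to 0.03, and without heterozygous sample 3 there were 2 of 8. Their mean log2 deviation from wild type was 0.28 in wild-type sample 2, which also held the highest S100b, and their part in the S100b values was not tested. Mog and Mbp, which encode myelin proteins, were at -0.22 ± 0.11 and -0.21 ± 0.12 (SE), and at -0.11 and -0.05 without wild-type sample 2. Among 8 tested genes of the S100 family the smallest p was that of S100a10, an annexin partner, at -0.24 ± 0.08 (SE) with no overlap between genotypes, followed by S100a16 at -0.10 ± 0.08 (SE). Of these 8 genes, 4 lay above wild type, and 2 did without wild-type sample 1. Besides S100a10, none of them was free of overlap, where 10.5% of all genes were.

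Aldoc encodes aldolase C, the glycolytic enzyme form enriched in astrocytes. It was at 29359.8, 33467 and 29465 normalized counts in wild-type samples and at 35339, 33898 and 28007 in heterozygous samples. Heterozygous samples 1 and 2 were above every wild-type sample and heterozygous sample 3 was below every one. The log2 fold change of Aldoc was 0.07 ± 0.09 (SE), with an interval of -0.13 to 0.27, and without heterozygous sample 3 it was 0.17. Like Gfap, Aqp4 and Gjb6, Aldoc had its highest value in heterozygous sample 1. Of 17 genes of glycolysis, glycogen and lactate transport, 11 lay above and 6 below wild type and none passed, and 7 lay above without heterozygous sample 1. Pygb, the brain glycogen phosphorylase, was at 0.15 ± 0.06 (SE).

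**Figure D2:**
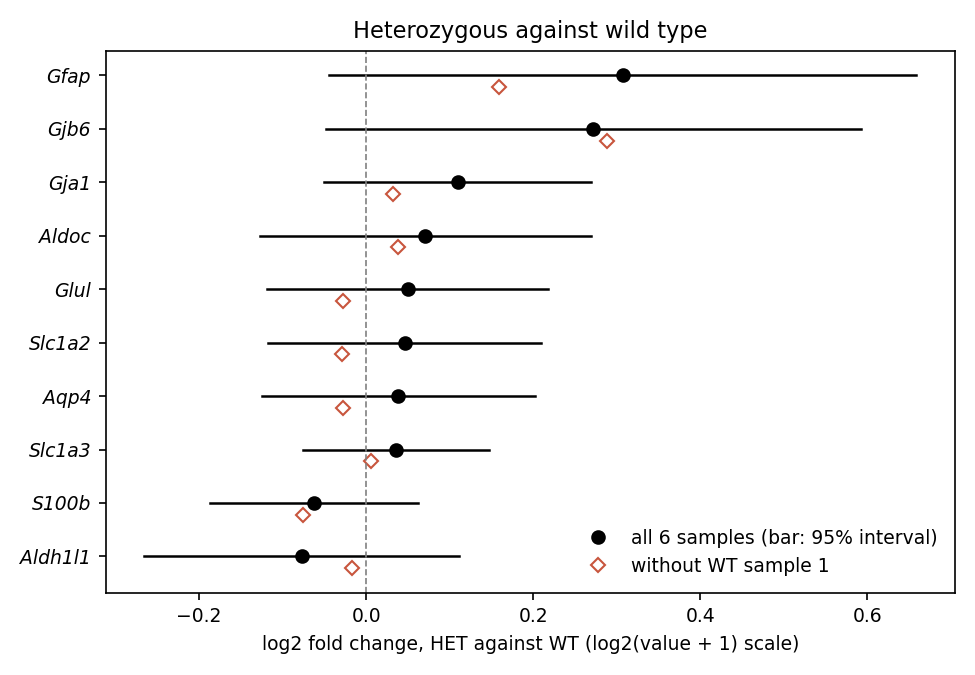
Log2 fold change of each astrocyte marker, heterozygous (HET) against wild type (WT), on the log2(value + 1) scale; filled points use all 6 samples with 95% intervals from limma, and open diamonds leave out WT sample 1. Every interval includes 0, and Aqp4, Slc1a2 and Glul turn from 0.04, 0.05 and 0.05 to -0.03 each without that sample.

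The precision of the comparison differed between the markers. For 8 of the 10, all but Gfap and Gjb6, the 95% intervals lay between 83.2% and 121% of wild type. For Gfap the interval reached from 97.0% to 158% of wild type and for Gjb6 from 96.7% to 151%. The lowest value of any marker, that of Gjb6 in wild-type sample 3, stood for about 1429 reads by the implied value of a read, a counting error of 2.65%.

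Levels were also compared between markers, per kilobase of merged exon (GENCODE M21) in normalized counts. Glul was highest, at a median of 18854 per kilobase over the 6 samples, followed by Slc1a2 at 9987 and Aldoc at 9643, whose ranges overlapped. S100b at 2578 and Slc1a3 at 2372 came next and did not overlap with each other or with their neighbours. Gfap at 949, Gjb6 at 819, Aldh1l1 at 666, Gja1 at 614 and Aqp4 at 606 formed the lowest group, in which each gene overlapped with the next. Exons that are not used in this tissue are counted in these lengths, so the order is approximate for genes such as Slc1a2 with 13.1 kilobases of merged exon.

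Reactive Gfap was then set against the 9 homeostatic markers within each sample. The log2 level of Gfap minus the mean log2 level of the others was -1.93, -1.41 and -1.76 in wild-type samples 1 to 3 and -1.39, -1.34 and -1.60 in heterozygous samples 1 to 3. Wild-type sample 2 lay among the heterozygous samples, so the genotypes overlapped. The heterozygous mean of -1.45 ± 0.14 was 0.25 higher than the wild-type mean of -1.70 ± 0.26 (SD, n = 3 each), less than the wild-type SD. It was 0.14 without wild-type sample 1 and 0.40 without wild-type sample 2. Against single markers, the heterozygous log2 ratio of Gfap was higher by 0.38 at most, for Aldh1l1, and by 0.04 at least, for Gjb6. In none of the 9 ratios were the genotypes free of overlap. The exact permutation p values were 0.2 to 0.8 before and 0.47 to 0.9 after Benjamini-Hochberg adjustment over 14 gene pairs. The 9 ratios share the same Gfap values and are not separate results. With 3 against 3 samples no exact p can go below 0.1.

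**Figure D3:**
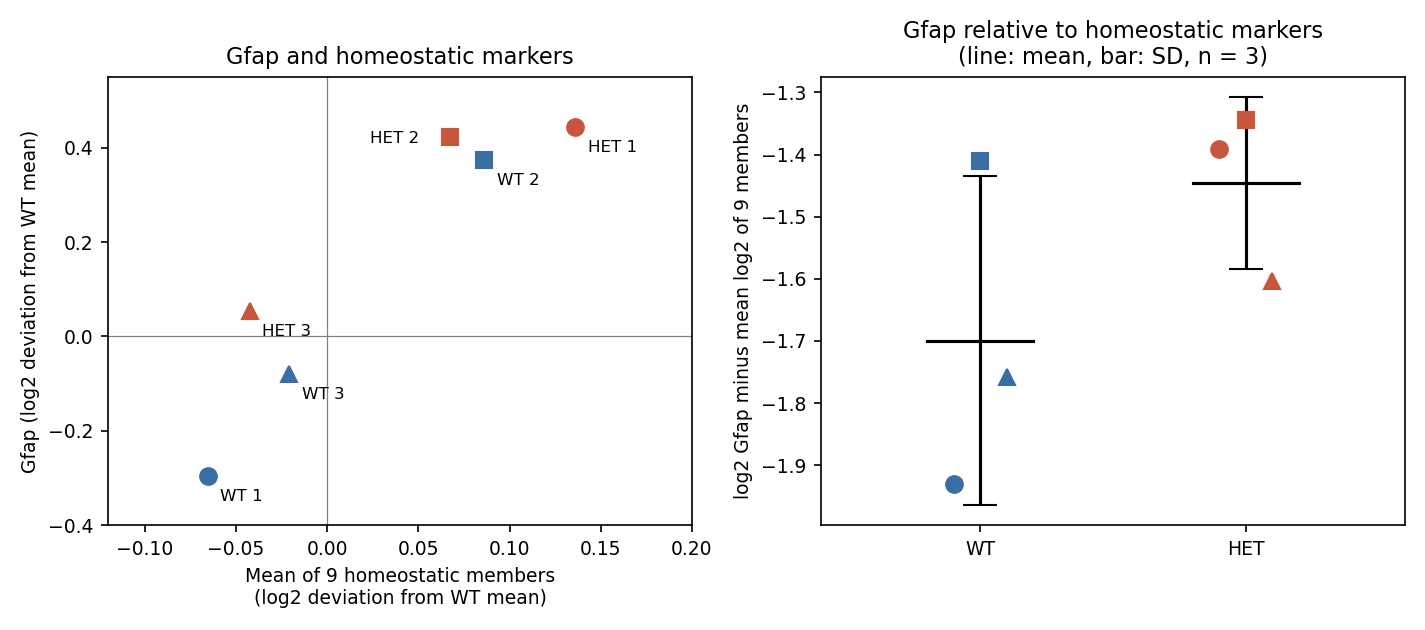
Left, log2 deviation from the wild-type (WT) mean of Gfap (vertical) against that of the mean of 9 homeostatic markers (horizontal), 1 point per sample; right, log2 Gfap minus the mean log2 of these markers by genotype, with means and SDs (n = 3), circles, squares and triangles standing for samples 1, 2 and 3. WT sample 2 (0.37 for Gfap) lies beside heterozygous (HET) samples 1 and 2 (0.44 and 0.42), and WT sample 1 (-0.30) is lowest.

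Other genes linked to astrocyte reactivity did not move one way with Gfap. RNA from whole tissue does not show which cells transcribed these genes. Of 36 such genes in lists of pan-reactive, neuroinflammatory and injury-associated transcripts, 29 were tested, 16 lay above wild type, the median log2 fold change was 0.006 and none passed. Among them 3 lay above and 2 below wild type with no overlap, beside 5.15% and 5.3% of all genes. Vim, the filament partner of Gfap, was at 1011, 1146 and 934 normalized counts in wild-type samples and at 1331, 1375 and 1036 in heterozygotes. The log2 fold change of Vim was 0.27 ± 0.11 (SE), with an unadjusted p of 0.041 and an adjusted p of 0.95 by limma-trend. Vim was highest in heterozygous samples 1 and 2, as was Gfap, and the log2 ratio of Gfap to Vim differed by 0.04 between the genotypes. Plec, a linker of intermediate filaments, was lower in each heterozygous sample than in each wild-type sample, at -0.14 ± 0.05 (SE).

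Aspg, an asparaginase of the pan-reactive list, was at -0.34 ± 0.16 (SE), opposite in sign to Gfap and Vim. The 9 genes tested in that list had log2 fold changes from -0.34 to 0.81. Of these, 5 lay above and 4 below wild type, and 1 lay above it with no overlap. In the neuroinflammatory list, Amigo2, an adhesion protein, was at 0.30 ± 0.12 and Gbp2, a guanylate-binding protein, at 0.33 ± 0.19 (SE). Of the 11 genes tested in that list, 6 lay above and 5 below wild type, with a median of 0.004. In the injury list, Sphk1, a sphingosine kinase, was at -0.30 ± 0.16 (SE), and S100a10 belongs to that list as well. Of its 9 tested genes, 5 lay above and 4 below wild type, with a median of 0.006. These medians moved when a sample was left out. The injury median ran from -0.13 without wild-type sample 1 to 0.12 without wild-type sample 3. The pan-reactive median ran from -0.06 without heterozygous sample 2 to 0.10 without heterozygous sample 3. The neuroinflammatory median ran from -0.01 without heterozygous sample 2 to 0.09 without heterozygous sample 1. The secreted markers Lcn2, Timp1 and Cxcl10 and the complement gene C3 had mean normalized counts of 7.75, 9.65, 2.16 and 6.41 and were not tested. The highest Lcn2 value was 18.1, in heterozygous sample 1, the sample with the highest Gfap. The next was 9.04, in wild-type sample 1, the sample with the lowest Gfap, and heterozygous sample 2 was at 5.46. Of 21 regulators of astrocyte fate and of Gfap, 10 lay above and 11 below wild type. Hes5, a Notch target, was at -0.35 ± 0.15 (SE) and the receptor gene Notch2 at 0.15 ± 0.07 (SE), each with no overlap between genotypes. In that list 1 gene above and 1 below wild type had no overlap, beside 5.15% and 5.3% of all genes.

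Further astrocyte genes shared the pattern of the markers across samples. Of 28 other astrocyte genes, 24 lay above wild type and none passed, and their median was 0.07 on the log2 scale. Leaving out wild-type sample 1 left 11 of 28 above wild type, with a median of -0.02. Leaving out any other sample left 18 to 26 of 28 above it. Itih3, an inhibitor heavy chain of the extracellular matrix, and Id4, a transcriptional inhibitor, had the smallest p. Itih3 was at 566, 769 and 637 normalized counts in wild-type and 897, 1097 and 790 in heterozygous samples. Id4 was at 809, 918 and 842 in wild-type and 1009, 1102 and 990 in heterozygous samples. In both genes every heterozygous sample was above every wild-type sample. Of the 28 genes, 2 lay above and 1 below wild type with no overlap, beside 5.15% and 5.3% of all genes. The log2 fold change was 0.50 ± 0.14 for Itih3 and 0.27 ± 0.08 for Id4 (SE), and the adjusted p was 0.74 for both by limma-trend.

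Among 13301 genes with a mean of at least 50, the 5 whose log2 values ran closest to the mean of the homeostatic markers over the 6 samples were Sema4g, Amotl1, Fgfrl1, Slc39a12 and Rex1bd, with Pearson's r of 0.99 each. Slc39a12, a zinc transporter, was also on the list of other astrocyte genes. Those closest to Gfap were Fads1, Apod, Cyp2j6, Zfp414 and Eif3f, at an r of 0.99 to 1.00. With 6 samples and this many genes, correlations of this size are a description only.

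Vascular and microglial markers, like the astrocyte markers, were lowest in wild-type sample 1, whereas neuron and blood markers were highest there. Endothelial and pericyte markers lay above wild type for 8 of 9 genes and meningeal markers for 6 of 7, with medians of 0.09 and 0.14, and no gene passed. Leaving out wild-type sample 1 gave 5 of 9 with a median of 0.004 and 5 of 7 with a median of 0.07. The vascular median was 0.03 without heterozygous sample 2 and 0.15 without wild-type sample 2. Their summed normalized counts ran from 12023 to 15477 in wild-type and from 13785 to 15992 in heterozygous samples for the vascular list, and from 5001 to 6107 and from 5802 to 6592 for the meningeal list. In wild-type sample 1 the mean log2 deviation of the vascular list was -0.17, that of microglia -0.14 and that of the 10 astrocyte markers -0.09, while neuron markers were at 0.08. In wild-type sample 2 these values were 0.14, 0.16, 0.12 and -0.07. Summed normalized counts of microglia ran from 11440.0 to 14231 in wild-type samples and from 12641 to 13525 in heterozygotes, and those of neurons from 281009 to 309690.0 and from 279412 to 290321. The summed astrocyte markers ran from 238724 to 282146 in wild-type and from 255954 to 281423 in heterozygous samples. Slc1a2 and Glul made up most of that sum, at 114359 and 55085 of the 238724 in wild-type sample 1. The part of tissue composition in the astrocyte values was not tested.

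The first listed marker of each other type was above 0 in every sample, whereas the ependymal genes Ccdc153 and Tmem212 were listed at 0 in some. The meningeal transporter gene Slc6a20a was at 0.33 ± 0.08, Ogn at 0.21 ± 0.09 and Col1a1 at -0.0015 ± 0.13 (SE). Slc6a20a and Ogn were the 2 of 7 meningeal genes above wild type with no overlap. None was below with no overlap, beside 5.15% of all genes above and 5.3% below. Vascular Slco1a4, Flt1 and Cldn5 were at 0.10, 0.09 and -0.04. Microglial C1qb, C1qa and Aif1 were at 0.15, -0.11 and -0.11, with 5 of 8 microglial markers above wild type. Without wild-type sample 1 that count was 2 of 8 (median -0.06), and without wild-type sample 2 it was 7 of 8 (median 0.09). Neuronal Rbfox3 was at -0.16 ± 0.05 (SE) with no overlap and Gad1 at 0.11 ± 0.06 (SE). Of 8 neuron markers, 4 lay above wild type, or 2 of 8 without heterozygous sample 1. With no overlap, 2 of these 8 lay below wild type and 0 above, beside 5.3% and 5.15% of all genes. Precursor cell genes Gpr17, Neu4 and Pdgfra were at -0.26, -0.13 and 0.01, and ependymal Foxj1 and Dynlrb2 at -0.19 and -0.28. Haemoglobin genes Hbb-bs, Hbb-bt and Hba-a1 were at -0.15, -0.20 and 0.05. Wild-type sample 1 was high and wild-type sample 3 low in the blood list, at 0.24 and -0.27.

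**Figure D4:**
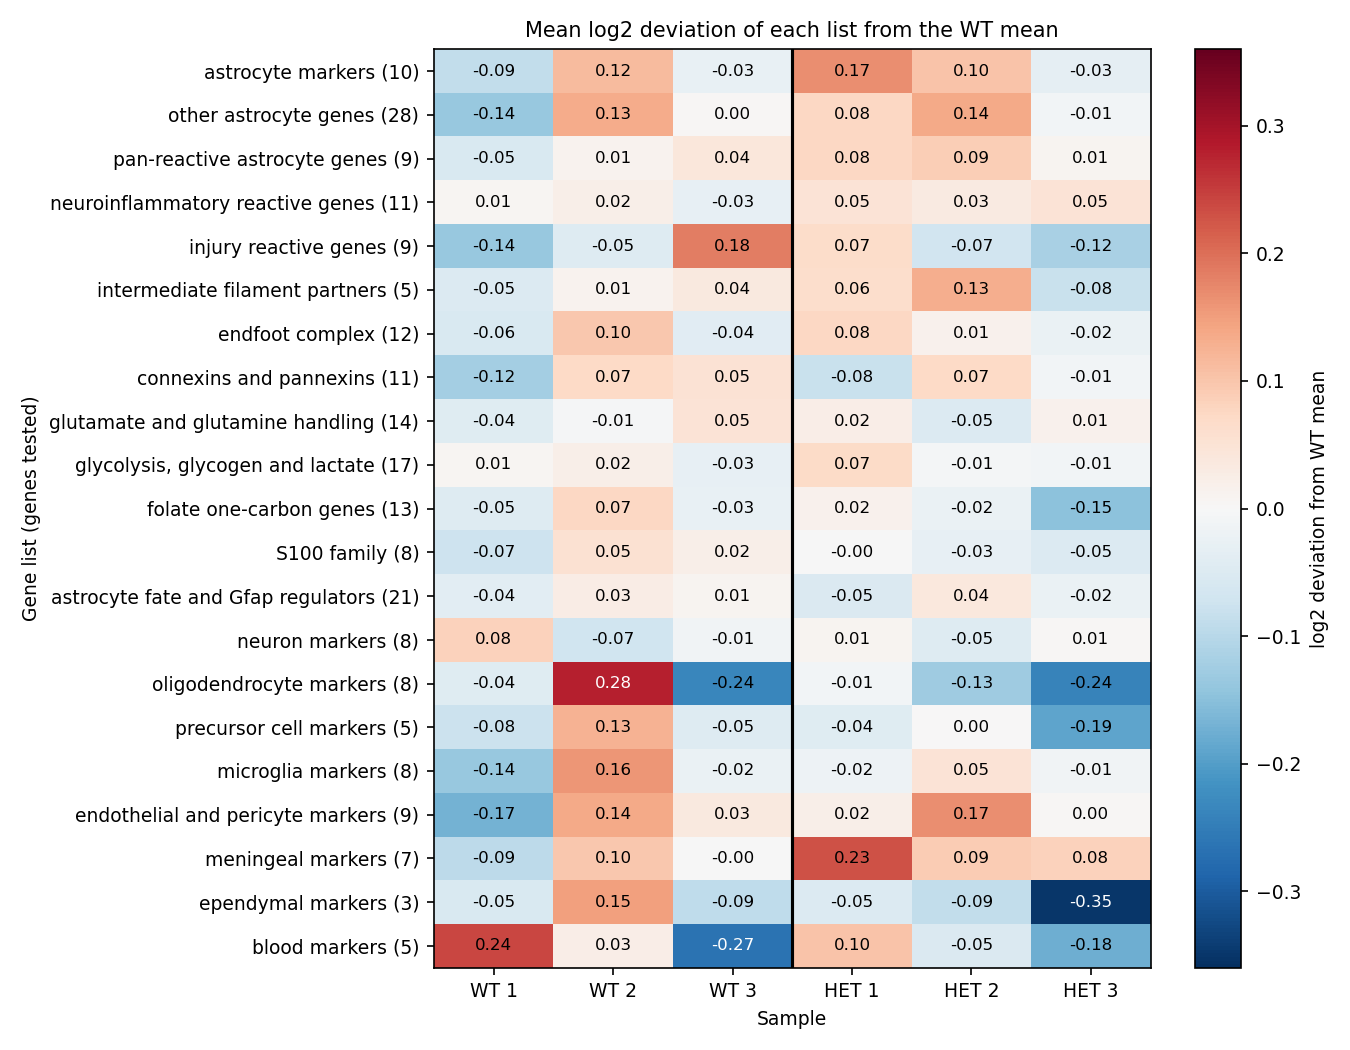
Mean log2 deviation from the wild-type (WT) mean of each gene list (rows, with the number of genes tested) in each WT and heterozygous (HET) sample (columns). In WT sample 1 the astrocyte markers (-0.09), other astrocyte genes (-0.14), microglia (-0.14) and endothelial lists (-0.17) are all low, and in WT sample 2 they are high.

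All 6 samples were kept. Deposited totals were 36.4 to 37.1 M normalized counts per sample, and the implied depth was 27.2 to 48.0 M reads, deepest in wild-type sample 1. Mitochondrially encoded genes took 8.13% to 9.47% of the total. Pairs of samples within a genotype all differed by more than counting noise, with a median chi-square per gene of 1.96 to 4.59.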

How the data were processed

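Poly(A) RNA of 3 wild-type and 3 heterozygous samples was sequenced with a stranded kit, per the labels' protocols. The submitters' processing notes name the build GRCm38 and, without what each was used for, DESeq2 1.19.11, Salmon 0.11.2 and R 3.6.0. The deposited signal per gene is a normalized count by the authors, not a raw count: of the values up to 2 reads, 77.3% to 84.5% lay within 0.1 of whole reads, but of those of 10 to 20 reads only 21.4% to 43.0%. Whole reads were not recovered and no count model was used. The implied depth divides the total by the most common low step, and the factor of a single gene is unknown.

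The scale of the test was log2(value + 1), fitted by limma 3.58.1 under R 4.3.3 (linear model with genotype, variances shrunk toward a trend in level), for genes with a mean of at least 10, with Benjamini-Hochberg adjustment over 15151 genes at 0.05. The pseudocount understates changes of low genes. Symbols came from GENCODE for 18122 of 18160 identifiers. The markers, lists and tests were chosen with earlier results of these data known. Named were all markers, the 2 genes of each list with the smallest p (except for a gene that is not reported here), the first gene of each cell type list and the 5 genes most like Gfap or the homeostatic mean. Lcn2, Timp1, Cxcl10 and C3 were named after their values were seen. The procedure was tested on simulated data. Alternatives were rescaling by a trimmed mean of M values (TMM), limma without trend, robust or with array weights, other filters and pseudocounts, a threshold of 0.1, a replicate block and each sample left out; list counts with each sample left out were added after seeing the data.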

Additional observations from a re-analysis of the deposited data

How the results depend on the processing

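Over 16 alternatives, 0 of the 10 astrocyte markers passed the threshold in each. The count above wild type was 8 in all but 1 of the 15 alternatives that give it, several of which leave the fold changes as they are. Without wild-type sample 1 that number was 5, with Aqp4 at a log2 fold change of -0.028, Slc1a2 at -0.028 and Glul at -0.027, and the number of other astrocyte genes above wild type was 11 of 28 (11 to 26 over the left-out samples). The median of the markers ran from -0.006 to 0.11 and the Gfap difference from the homeostatic markers from 0.14 to 0.40. TMM rescaling moved the median of all genes from 0.0020 to 0.0009. Of all genes, 2 passed, against 1 without the variance trend, 1 with a mean of at least 50 and 1 to 4 with a sample left out. Cyfip2 was not past the threshold without the trend (log2 fold change -0.63, adjusted p = 0.15). The sample numbers are not known to pair the samples: deviations of same-numbered samples correlated at 0.13, 0.12 and -0.005, and not every sample correlated best with its own number. With the sample number as a replicate block 2 genes and 0 markers passed, Gfap at an adjusted p of 0.51 and Gjb6 at 0.47, the lowest of each gene over the alternatives, where both reached 1.00. Signs also turned with a sample left out for genes near 0, whose log2 fold changes then ran from -0.028 to 0.094 (Aqp4), -0.028 to 0.10 (Slc1a2), -0.027 to 0.11 (Glul), -0.031 to 0.057 (Pdgfra), -0.21 to 0.0034 (C1qa), -0.21 to 0.024 (Aif1), -0.12 to 0.044 (Cldn5), -0.12 to 0.11 (Col1a1) and -0.013 to 0.096 (Hba-a1). The cause was not tested. The counting error of the markers stayed at or under 2.65% by the implied reads; other depths and sample numbers were not tested.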
